A study of Bos taurus with 8 samples.

Results

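The miR-378 family was described in cell-free blood of 4 healthy lactating Holstein cows. From each cow, 1 small RNA library was made from serum (sera) and 1 from the exosomes isolated from that serum, which gave 4 sera and 4 exosome libraries with no treatment and no genotype contrast. Sera RNA was extracted with a Norgen kit and exosomal RNA with an Invitrogen kit, so sample type and extraction cannot be told apart. The family members were the rows whose miRNA name was miR-378, with or without a letter from a to d and an arm suffix. The rule found 4 members, miR-378, miR-378b, miR-378c and miR-378d, of 534 bovine miRNAs listed, of which 445 had reads. All 4 members passed the expression limit of the study, more than 1 RPM (reads per 1000000 miRNA reads) in the sera or the exosomes of 2 or more cattle, as did 365 miRNAs in all. A limit of 10 reads in every library was passed by 128 miRNAs and by 2 members, miR-378 and miR-378c.

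MicroRNAs are short RNAs that bind messenger RNAs, mainly through a seed near their 5′ end, and lower translation or stability of their targets. The main miR-378 gene of mammals lies in an intron of PPARGC1B, which encodes the coactivator PGC-1β of mitochondrial and lipid metabolism, and miR-378 is known for roles in energy metabolism, fat cells and muscle. The RefSeq annotation of the bovine genome (assembly ARS-UCD2.0) held 5 genes for the 4 members, on 5 different chromosomes. MIR378-1 lay within PPARGC1B, MIR378-2 within CALCR, which encodes the calcitonin receptor, MIR378C within ZNF521, which encodes a zinc finger protein, and MIR378D within MSI2, which encodes an RNA-binding protein. MIR378B overlapped no other gene. The row named miR-378 pools whatever MIR378-1 and MIR378-2 produced. Members of this family are closely similar in sequence, and reads that match more than 1 member could have been shared among them by the aligner, so the levels of the minor members are uncertain. No member had the same values in all libraries as any other miRNA.

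The sera libraries held 264769 to 590162 miRNA reads and the exosome libraries 60682 to 157710. Each read stood for 1.69 to 3.78 RPM in a sera library and for 6.34 to 16.5 RPM in an exosome library. A count of 0 allows up to 3 reads, which were 5.08 to 11.3 RPM in a sera library and 19.0 to 49.4 RPM in an exosome library. RPM gives shares within a library, where a larger release of miR-378 cannot be told apart from a smaller release of other miRNAs, nor more releasing cells from more RNA per cell. The intervals below cover counting error only.

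miR-378 carried most of the reads of the family. In sera its level was 8238 RPM in cow 1, 2798 in cow 2, 2855 in cow 3 and 3104 in cow 4, from 2201, 1651, 756 and 1384 reads. In exosomes its level was 7877 RPM in cow 1, 2292 in cow 2, 1943 in cow 3 and 2454 in cow 4, from 478, 294, 199 and 387 reads. Cow 1 stood above the other cows in both sample types, and every value of cow 1 was above every value of cows 2 to 4. The 95% exact Poisson interval of cow 1 was 7897 to 8589 RPM in sera, against limits of 2655 and 3272 RPM over the intervals of cows 2 to 4. In exosomes the interval of cow 1 was 7187 to 8616 RPM, against limits of 1682 and 2711 RPM over the other cows. Among cows 2 to 4, cows next to each other in level had overlapping intervals in both sample types. By rank among the 534 miRNAs, miR-378 was number 28 in the serum and 27 in the exosomes of cow 1, and between 41 and 55 in the other libraries. Sera had a mean of 4249 ± 2663 RPM and exosomes a mean of 3642 ± 2832 RPM (SD, n = 4). Without cow 1 the means were 2919 ± 163 and 2230 ± 261 RPM (SD, n = 3).

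miR-378c, the next most abundant member, had its highest level in cow 1 too, with less separation. In sera its level was 868 RPM in cow 1, 398 in cow 2, 514 in cow 3 and 507 in cow 4, from 232, 235, 136 and 226 reads. In exosomes it was 972 RPM in cow 1, 491 in cow 2, 332 in cow 3 and 457 in cow 4, from 59, 63, 34 and 72 reads. Every value of cow 1 was above every value of cows 2 to 4, while the order of cows 2 to 4 was different in sera and in exosomes and cows next to each other in that order had overlapping intervals. Sera had a mean of 572 ± 205 RPM and exosomes of 563 ± 281 RPM (SD, n = 4), which became 473 ± 64.8 and 427 ± 83.8 RPM without cow 1 (SD, n = 3).

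miR-378d and miR-378b were close to the depth limit. miR-378d had 15, 14, 10 and 23 sera reads in cows 1 to 4 (56.1, 23.7, 37.8 and 51.6 RPM). In exosomes it had 6, 2, 3 and 1 reads (98.9, 15.6, 29.3 and 6.3 RPM). Cow 1 was highest for this member as well, but on few reads, and cow 4 was close to it in sera. In exosomes the interval of cow 1, 36.3 to 215 RPM on 6 reads, lay just above that of cow 4 and overlapped those of cows 2 and 3. miR-378b had 4, 10, 3 and 2 reads in sera (15, 16.9, 11.3 and 4.5 RPM). In exosomes it had 0, 1, 1 and 5 reads (0, 7.8, 9.8 and 31.7 RPM), and the count of 0 in the exosomes of cow 1 allows up to 49.4 RPM. For miR-378b the highest cow was cow 2 in sera and cow 4 in exosomes, and no difference between cows was called.

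**Figure D1:**
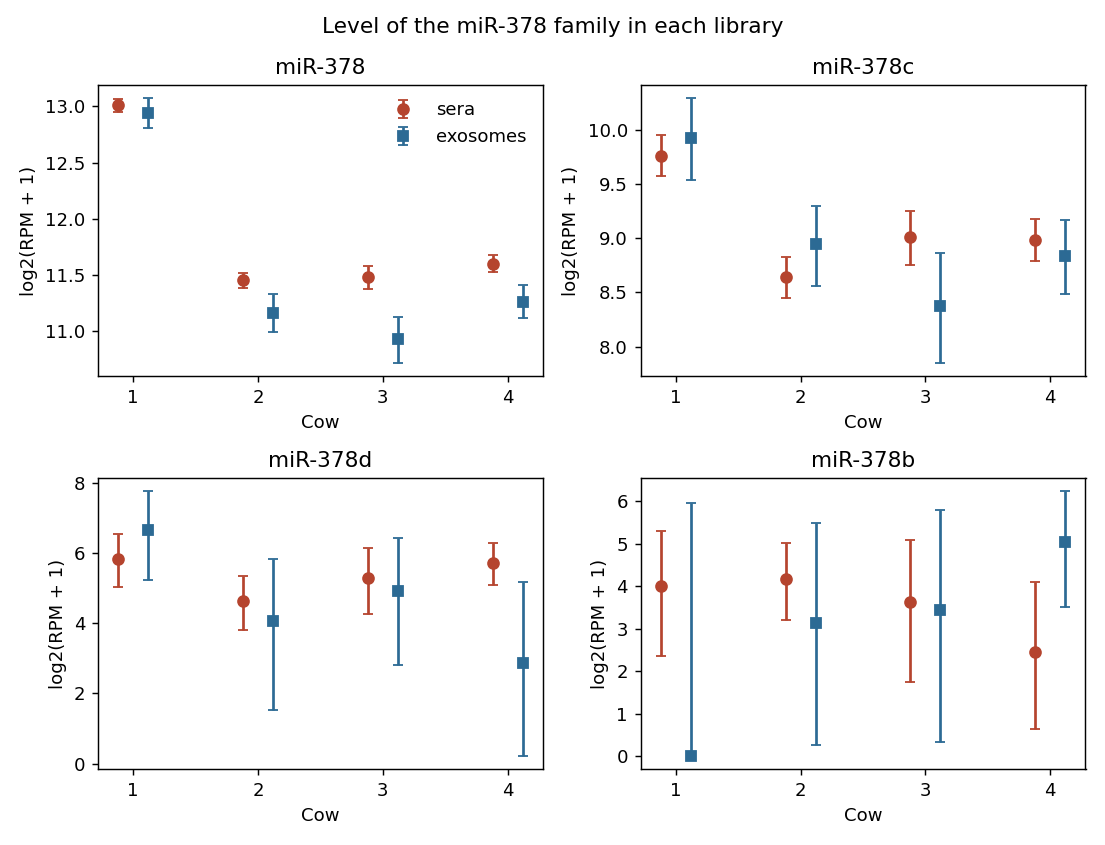
Level of each miR-378 family member on a log scale of RPM in the sera and exosomes of cows 1 to 4, with 95% exact Poisson intervals as bars (counting error only). miR-378 and miR-378c are highest in cow 1 in both sample types, while the wide bars of miR-378d and miR-378b rest on at most 23 reads.

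Differences between cows were tested with limma, in a model with sample type and cow on log2(RPM + 1) over the 365 expressed miRNAs. The 2 libraries of a cow came from the same serum, so the residual of this F test comes from the disagreement of paired preparations. Limma's moderation draws the residual of each miRNA toward that of miRNAs of similar level, so an FDR does not rest on that miRNA's pairs alone. The test measures repeatability and not variation over a herd. At an FDR under 0.05 the cows differed for 93 of 365 miRNAs (25.5%) and for 2 of the 4 members. miR-378 had the second largest F of all miRNAs tested (F = 49.6, limma FDR = 8.3e-30), and miR-378c was at rank 39 (F = 9.11, limma FDR = 4.67e-05). With 0.1 or 10 added to RPM in place of 1, the limma FDR of miR-378 was 1.66e-09 or 5.07e-11. Its size thus depended on this choice, while its call did not. miR-378d (limma FDR = 0.390) and miR-378b (limma FDR = 0.776) did not pass. The 25.5% includes miRNAs of few reads. When only the 128 miRNAs that had 10 or more reads in each library were tested, 89 differed, miR-378 and miR-378c among them. A call between cows was thus common among miRNAs with enough reads. When both libraries of cow 1 were left out, the test among cows 2 to 4 passed for 86 of 365 miRNAs (23.6%) and for none of the members, with a limma FDR of 0.518 for miR-378 and 0.801 for miR-378c.

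Cow 1 was singled out after the values were seen, so its ratio to the other cows is a description with no test. For miR-378 the level of cow 1 was 2.82 times the mean of cows 2 to 4 in sera and 3.53 times in exosomes, the second highest ratio in both sample types among the 128 miRNAs that had 10 or more reads in each library. For miR-378c the ratio was 1.84 in sera and 2.28 in exosomes, the fourth highest in both. A ratio over 2 was found for 3 of the 128 miRNAs in sera (2.34%) and for 7 of 128 in exosomes (5.47%). Of these, miR-133a and miR-378 were over 2 in both sample types, and miR-378c was over 2 in exosomes. Of the 128 miRNAs, 20 (15.6%) were highest in cow 1 in both sample types, and both members with enough reads were among them. The exosome ratio of miR-378 depended on the scaling and fell to 2.98 when miR-486 was left out of the miRNA reads and to 2.71 with TMM-scaled library sizes.

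**Figure D2:**
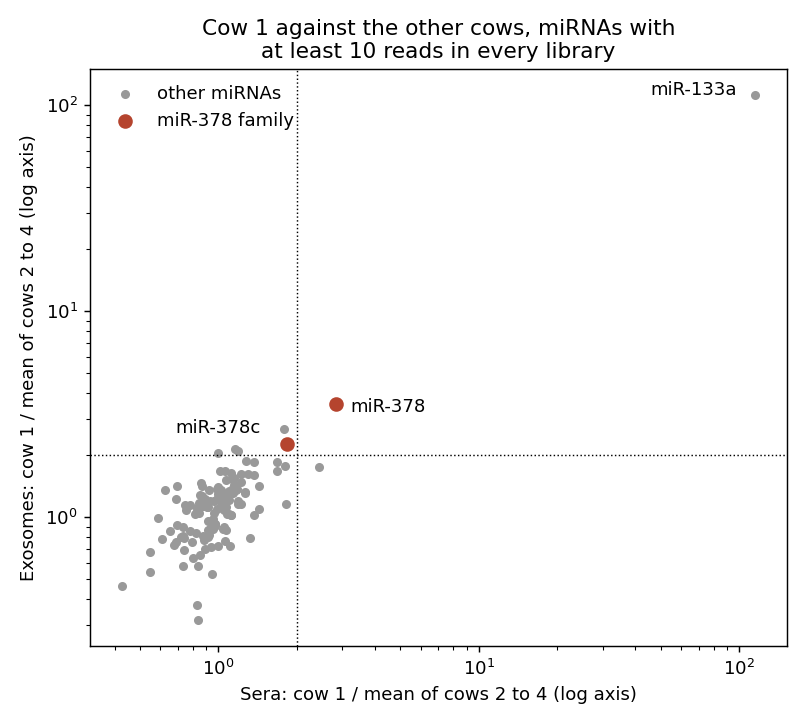
Ratio of cow 1 to the mean of cows 2 to 4 in sera (horizontal) and in exosomes (vertical), both on log axes, for the 128 miRNAs that had 10 or more reads in each library. Each point is a miRNA, with miR-378 at 2.82 and 3.53, miR-378c at 1.84 and 2.28, and miR-133a far from the rest at 115 and 112.

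The sera and exosomes were then compared for the family. By limma on log2(RPM + 1), none of the 4 members was called at a log2 fold change (Log2 FC) beyond 1 and an FDR under 0.05, against 16 of 365 miRNAs (4.38%), of which 11 were higher in sera and 5 in exosomes. No member had an unadjusted p under 0.05 in limma, and none was called by edgeR or by DESeq2 on the recovered reads, where the edgeR calls were 6 toward sera and 8 toward exosomes. The Log2 FC of sera over exosomes was 0.31 for miR-378 (SE 0.43, 95% interval -0.61 to 1.23, limma FDR = 0.718). For miR-378c it was 0.08 (SE 0.34, 95% interval -0.64 to 0.80, limma FDR = 0.925). The interval of miR-378c excluded a 2-fold difference and that of miR-378 did not, and the sign of both turned with DESeq2 (-0.031 for miR-378 and -0.27 for miR-378c) and that of miR-378c also with edgeR and TMM scaling (-0.13). For miR-378d it was 0.74 (SE 0.82, interval -1.02 to 2.51) and for miR-378b 0.66 (SE 1.09, interval -1.68 to 3.005), the value of miR-378d fell to 0.12 with DESeq2, and the sign of miR-378b turned with edgeR, with DESeq2 and without cow 1. The median Log2 FC was 0.49 over the 4 members and 0.57 over the 365 miRNAs, and it was 0.31 over the 128 miRNAs that had 10 or more reads in each library.

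Within cows, on the RPM scale, miR-378 was higher in sera than in exosomes in 4 of 4 cows, by 0.06, 0.29, 0.56 and 0.34 on the log2 scale in cows 1 to 4. When the cow entered limma as a replicate block, the interval of miR-378 narrowed to 0.08 to 0.54 and its limma FDR was 0.0358, with a Log2 FC still below the limit of 1. On the recovered reads with TMM scaling and the same block its Log2 FC was 0.11 (edgeR FDR = 0.680). By edgeR the median Log2 FC of the 128 miRNAs was 0.31 with library totals and 0.11 with TMM, where that of miR-378 without the block was 0.23 and 0.13. The count of cows depended on the scale too, and miR-378 was higher in sera in 3 of 4 cows with TMM-scaled library sizes or without miR-486. miR-378c was higher in sera in 2 of 4 cows, with differences of -0.16, -0.30, 0.63 and 0.15.

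The 4 members together made 9177, 3236, 3418 and 3667 RPM in sera, from cow 1 to cow 4, and 8948, 2807, 2314 and 2948 RPM in exosomes. The total was higher in sera in 4 of 4 cows on the RPM scale, by 229 to 1105 RPM, but in 3 of 4 with TMM-scaled library sizes and in 2 of 4 without miR-486. The mean difference of 620 RPM became 281 and 158 RPM on these scales. The sera mean of 4875 ± 2874 RPM and the exosome mean of 4254 ± 3141 RPM (SD, n = 4) differed by less than the spread between cows (exact two-sided permutation test, p = 0.457, and 0.457 after adjustment over 2 comparisons). Within cows the exact two-sided sign-flip test gave p = 0.125, the smallest that 4 cows allow. Without cow 1 the sera total was 3441 ± 216 RPM and the exosome total 2690 ± 333 RPM (SD, n = 3), and all 3 sera were above all 3 exosomes (exact permutation test, p = 0.1, the smallest that 3 against 3 allows).

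The make-up of the family was also compared. miR-378 made 86.1 ± 2.72% of the family reads in sera and 84.2 ± 2.71% in exosomes (SD, n = 4 each). The share of miR-378c in sera was 9.46% in cow 1 (95% Wilson interval 8.37 to 10.7), 12.3% in cow 2 (10.9 to 13.9), 15.03% in cow 3 (12.8 to 17.5) and 13.8% in cow 4 (12.2 to 15.6). In exosomes it was 10.9% in cow 1 (8.52 to 13.8), 17.5% in cow 2 (13.9 to 21.8), 14.3% in cow 3 (10.5 to 19.4) and 15.5% in cow 4 (12.5 to 19.1). Cow 1 had the lowest share in both sample types, with an interval below those of the other cows in sera, and in exosomes below that of cow 2 and overlapping those of cows 3 and 4. The sera mean was 12.7 ± 2.40% and the exosome mean 14.5 ± 2.78% (SD, n = 4), a difference within the spread between cows (exact two-sided permutation test, p = 0.343, and 0.457 after adjustment over 2 comparisons). In 1 of 4 cows the share was higher in sera (p = 0.25 by the exact sign-flip test). Put as a ratio, there were 9.49 reads of miR-378 for each read of miR-378c in the serum of cow 1, against 5.56 to 7.03 in the other sera, and 8.10 in its exosomes against 4.67 to 5.85 in the others.

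**Figure D3:**
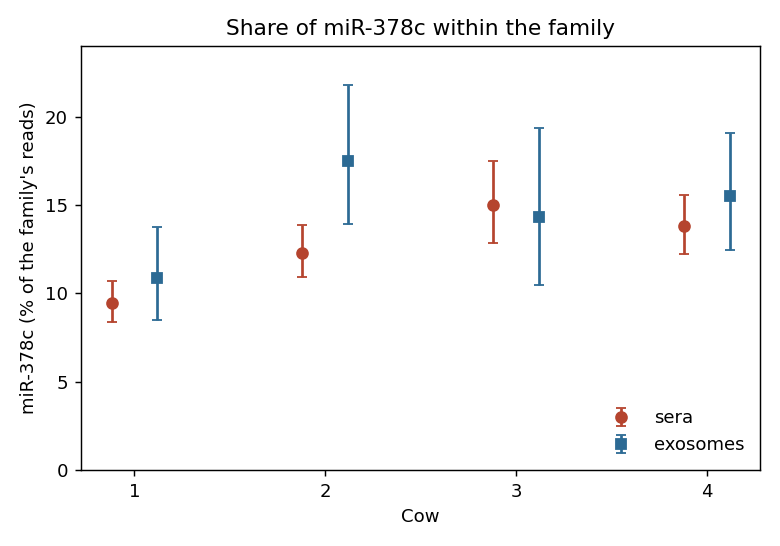
Share of miR-378c in the reads of the miR-378 family in percent, by cow, in sera and exosomes, with 95% Wilson intervals as bars (counting error only). Cow 1 has the lowest share in both sample types, at 9.46% and 10.9%.

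Lists of miRNAs (4 in all) that are known for a tissue or pathway were read in the same libraries, beside the level of miR-378. The muscle list held 7 miRNAs of skeletal and heart muscle, which act in muscle differentiation and fibre type, and all 7 were listed. Together they made 23108 RPM in the serum of cow 1, against 203 to 244 RPM in the sera of cows 2 to 4, and 26301 RPM in the exosomes of cow 1, against 164 to 355 RPM. Of the 4 that were expressed, all 4 differed between cows by the limma F test, against 25.5% of the 365 expressed miRNAs, and all 4 were highest in cow 1 in both sample types, against 32 of 365 (8.77%). miR-133a, an abundant miRNA of striated muscle, was at 21761 RPM in the serum and 25279 RPM in the exosomes of cow 1, and at 171 to 215 and 156 to 323 RPM in the other cows. miR-208b and miR-499, which lie within slow myosin genes, were at 644 and 539 RPM in the serum of cow 1 and at most at 10.2 and 22.7 RPM in the other sera. Their exosome levels in cow 1 were 643 and 231 RPM, against at most 48.8 and 12.7 RPM in the other cows, and miR-133b was at 150 and 148 RPM in the 2 libraries of cow 1 and at most at 9.8 RPM elsewhere. The remaining 3 had few or no reads. miR-206 had 0 reads in all libraries, and miR-208a had 3 reads in the serum of cow 1 and 2 in the exosomes of cow 4. miR-1 had 1 read, in the serum of cow 1, but whether the tables hold all reads of miR-1 could not be settled, so this count is not read as an absence. The muscle list and miR-378 were thus both highest in cow 1, by 105 and 2.82 times in sera, and the part of the muscle miRNAs or their source in the level of miR-378 was not tested.

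**Figure D4:**
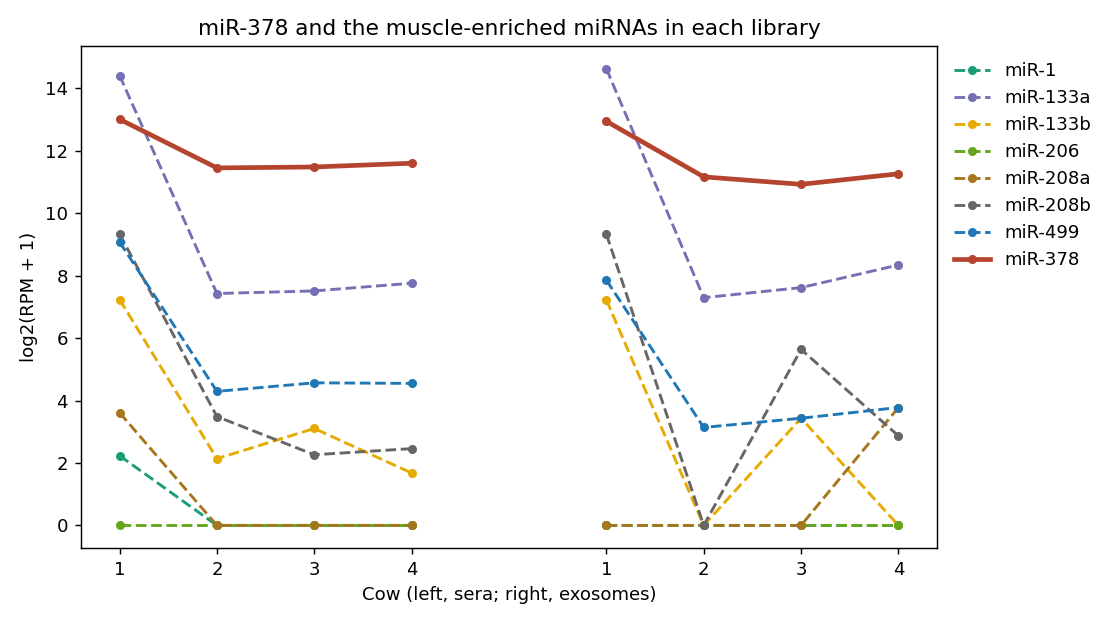
Levels of the muscle list and of miR-378 by cow, in sera and exosomes, on a log scale of RPM with 0 shown at the bottom, where lines join the values of 1 miRNA. miR-133a falls from 21761 RPM in cow 1 to at most 215 RPM in the other sera, while miR-378 goes from 8238 to at most 3104 RPM.

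The sum of the red cell list was lowest in cow 1 in both sample types. Its 4 miRNAs, which include miR-451 and miR-486, both abundant in erythrocytes, summed to 174730 RPM in the serum of cow 1 and 177415 to 261957 RPM in the other sera. In exosomes the sum was 205168 RPM in cow 1 and 305274 to 398902 RPM in the other cows. By miRNA, miR-451 and miR-16b were lowest in cow 1 in both sample types, and the other members were not. In sera miR-486 was lower in cow 3 (129743 RPM) than in cow 1 (138114 RPM). In exosomes miR-144 was at 379 RPM in cow 1, above cow 2 (265 RPM) and cow 3 (273 RPM). Of the 4 miRNAs, 3 differed between cows (25.5% of all 365, but 89 of the 128 with 10 or more reads in each library). None was highest in cow 1 in both sample types (8.77% of all 365), and 1 (miR-144) was called higher in sera, the only call between sample types in these lists. RPM is a share, so a smaller red cell sum leaves a larger share for the other miRNAs together. The part of the red cell sum in the level of miR-378 was not tested. Without miR-486, the most abundant of the 4, the ratio of cow 1 for miR-378 was 2.73 in sera and 2.98 in exosomes.

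The liver list had 4 expressed miRNAs, of which 3 differed between cows and 2, miR-192 and miR-194, were highest in cow 1 in both sample types, beside the same 25.5% and 8.77% of all 365. Its sum in cow 1 was 1.27 times the mean of the other cows in sera and 1.87 times in exosomes, and nearly all of it was miR-192, which is also known from gut and kidney. miR-122, the defining liver miRNA, was at 41.2 RPM in the serum of cow 1 against 13.5 to 108 RPM in the other sera. It had 0 reads in the exosomes of cow 1, which allows up to 49.4 RPM, against 19 to 48.8 RPM in the other exosomes. Of the 3 that differed between cows, miR-122 and miR-194 were close to the limit (limma FDR = 0.0490 and 0.0499). The lipid metabolism list, chosen because miR-378 acts in that field, had 7 expressed miRNAs, of which 5 differed between cows and 2, the near-identical miR-103 and miR-107, were highest in cow 1 in both sample types, again beside 25.5% and 8.77%. For both lists the 25.5% is a low base, since 89 of the 128 miRNAs with 10 or more reads in each library differed between cows. Its sum in cow 1 was 0.90 times the mean of the other cows in sera and 1.01 times in exosomes. The sum hides members that went different ways. miR-143 was at 0.55 times that mean in sera and 0.68 in exosomes, and miR-27b at 0.96 and 1.04. miR-33b, miR-103, miR-107 and miR-27a-3p were above the mean in both sample types, and miR-33a in sera only. miR-33a, which represses cholesterol export, was at 97.3 RPM in the serum of cow 1 and at 44.1 to 90.6 RPM in the other sera. It had 0 reads in the exosomes of cow 1, which allows up to 49.4 RPM, against 57.1 to 87.9 RPM in the other exosomes. miR-33b went the other way in exosomes, at 131.8 RPM in cow 1 and at 46.8 to 63.4 RPM in the other cows. These exosome levels of miR-33b rested on 5 to 10 reads. In sera miR-33b was at 86.1 RPM in cow 1 and at 60.4 to 89.7 RPM in the other cows. miR-33b did not pass the test between cows (limma FDR = 0.663).

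The miRNAs whose pattern over the 8 libraries was most like that of miR-378 were ranked by the root mean square difference of log2(RPM + 1) after centring each miRNA on its own mean. The measure is descriptive, over 4 pairs of libraries that share a serum. The closest of 127 miRNAs was the family member miR-378c, at 0.31, against a median of 0.81 over all 127. Reads that match both members could have been shared between them, and the part of such sharing in this closeness was not tested. Outside the family the 5 closest were miR-215 (0.37), miR-342 (0.46), miR-192 (0.50), miR-141 (0.52) and miR-29a (0.52). miR-215 was at 19500 RPM in the serum of cow 1 and 8407 to 14865 RPM in the other sera, and at 20978 RPM against 6594 to 10097 RPM in exosomes. miR-141 shared the high level of cow 1 in both sample types but was nearly as high in cow 4, at 1756 RPM (sera) and 1763 RPM (exosomes). miR-133a, with its far larger range, was not among the 5.

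**Figure D5:**
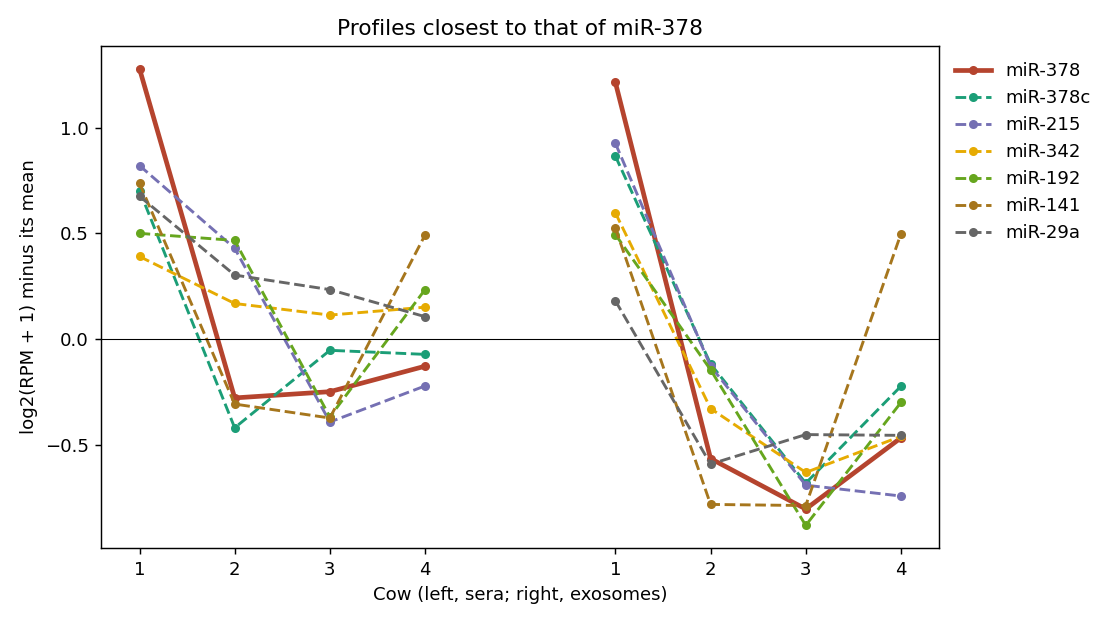
Centred log2(RPM + 1) over the 8 libraries for miR-378, its family member miR-378c and the 5 miRNAs outside the family closest to miR-378, where each line joins the values of 1 miRNA. miR-378 is the most raised of them in both libraries of cow 1, and the root mean square differences run from 0.31 for miR-378c to 0.52 for miR-29a.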

How the data were processed

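Small RNA of 4 sera and 4 exosome samples was sequenced (TruSeq small RNA libraries). The authors filtered reads with CASAVA 1.8, trimmed and aligned them to bovine miRNAs of miRBase release 21 with sRNAbench, each library separately, and deposited 1 table of RPM per library. RPM here is over the miRNA reads of the library, not all reads. Whole reads were recovered from the steps between values, with 100% of values whole within 0.1 RPM. Sample type and cow come from the labels and the study's methods, by which each exosome sample was made from the serum of one of these cattle. Over 128 miRNAs, deviations of same-numbered libraries correlated at 0.740 to 0.860. The mean for other pairs was -0.244, but deviations from a mean sum to 0, which pushes this value below 0, so it adds no separate evidence. No 2 libraries of one type agreed within counting noise.

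Limma (lmFit, eBayes with trend) was run on log2(RPM + 1), a scale that understates changes of low miRNAs, with Benjamini-Hochberg adjustment. EdgeR's quasi-likelihood test and DESeq2 on recovered reads, other pseudocounts and filters, the replicate block and left-out libraries were alternatives. Single values were tested with exact two-sided permutation tests. The limma fit was tested on simulated reads with planted changes. The simulated libraries had no other differences between cows, so the spread over cows in the real data was not covered. The 2 libraries of a cow are preparations of 1 serum, and p-values between sample types without the replicate block measure the spread over 4 cows. With the block, and in the sign-flip tests, they measure the spread of the differences within cows.

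The named miRNAs are the members, the 4 lists and the 5 closest profiles. The members and lists were chosen with earlier results of these data known, and cow 1 was singled out after its values were seen. The deposited tables hold no coordinates. RefSeq coordinates served to find which genes overlap and are not printed. Models used limma 3.58.1, DESeq2 1.42.0 and edgeR 4.0.16 in R 4.3.3, and the rest used SciPy 1.17.1, NumPy 2.4.6 and pandas 2.3.3 in Python 3.11.15, with matplotlib 3.10.9 for figures.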

Additional observations from a re-analysis of the deposited data

Results flagged for a closer look

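In groups of 4 libraries, the gap of the highest or lowest library to its nearest neighbour was divided by the range of the group and compared with Dixon's critical value for 4 samples at 95%, which chance passes in about 1 in 20 groups. Of 12 groups tested, 4 passed, and in each of them cow 1 was the high library. Sera and exosome groups share the serum of each cow, and the members and the family share reads. The groups are thus not separate trials, the count cannot be set against the chance rate, and all 4 passes reflect miR-378 in cow 1. For miR-378 the value was 0.944 in sera and 0.914 in exosomes. For the family total, which is mostly miR-378 and so no separate result, it was 0.927 in sera and 0.904 in exosomes.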

How the results depend on the processing

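Of 208 alternative values, 173 kept their direction and their side of the threshold or size, 17 moved, 16 changed sign and 2 lost their call. No Log2 FC of a member that changed sign was called. For miR-378 the Log2 FC was -0.031 with DESeq2 and -0.063 to 0.77 with 1 library left out. Without cow 1 it was 0.39, with a limma FDR of 0.270, or of 0.0065 with the replicate block, and so stayed below the limit of 1. For miR-378c it was -0.13 with edgeR and TMM, -0.27 with DESeq2, -0.14 with edgeR and the replicate block, and -0.14 to 0.38 with 1 library left out. For miR-378b it was -0.48 with edgeR and TMM, -0.28 with edgeR and library totals, -0.55 with DESeq2, -0.56 with edgeR and the replicate block, -0.45 without cow 1 with or without the block, and -0.31 to 1.37 with 1 library left out. For miR-378d it kept its sign, at 0.12 with DESeq2, 0.27 with edgeR and TMM and 0.16 to 1.42 with 1 library left out. The family total in sera minus exosomes ran from -814 RPM without the serum of cow 1 to 2185 RPM without the exosomes of cow 1, and was -26.5 RPM without the exosomes of cow 3, so its direction between unpaired groups rested on single libraries. It was 158 RPM without miR-486 and 281 RPM with TMM.

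The number of miRNAs called between sample types rose from 16 to 35 with limma and the replicate block, 26 with edgeR and the block, and 43 with limma and the block without cow 1. With 1 library left out, where the lone library of a cow carries no residual of its own, the number that differed between cows ran from 60 (without the exosomes of cow 4) to 123. Leaving out both libraries of cow 1, an alternative chosen after seeing the data, ended the call between cows for miR-378 (FDR 0.518) and for miR-378c (FDR 0.801). The exosome ratio of cow 1 for miR-378 was 2.98 without miR-486 and 2.71 with TMM. Depth limits miR-378b and miR-378d, which had at most 6 reads in an exosome library.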

Other observations

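Most of the excess of the family in cow 1 over the mean of cows 2 to 4 was miR-378, the main member in every library. In sera miR-378 made 5319 RPM of that excess (92.7%) and miR-378c 395 RPM (6.89%), and in exosomes miR-378 made 5647 RPM (90.2%) and miR-378c 546 RPM (8.72%). In cows 2 to 4 miR-378 already made 83.5 to 86.4% of the family reads in sera and 81.7 to 84.0% in exosomes. Most of its share of the excess was thus its usual share of the family. Other cows had miRNAs over 2 times the mean of the remaining cows as well. Among the 128 miRNAs that had 10 or more reads in each library there were 0, 5 and 1 in the sera of cows 2, 3 and 4 and 0, 6 and 3 in their exosomes, and no family member was among them. miR-2419-5p in cow 3, at 5.23 times in sera and 5.63 times in exosomes, had the highest of these ratios.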
